A study of Mus musculus with 2 samples.

Results

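The ribosomal protein genes encode the proteins that, with ribosomal RNA, build the cytoplasmic ribosome. They were chosen by symbol alone, as Rpl, Rplp and Rps genes with the spelling of a ribosomal protein and Rpsa, with the Rps6 kinases left out. This gave 82 of the 11971 genes in the table, 50 for the large and 32 for the small subunit. The large subunit joins amino acids into protein and the small subunit decodes the messenger RNA. Most ribosomal protein messages begin with a 5′ terminal oligopyrimidine tract (TOP), a run of C and T bases that lets cells set their translation through the mTOR pathway. T cells raise ribosome production when they leave quiescence to grow and divide.

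The cells were colonic CD4 T cells of Rag-/- mice, which lack mature T and B cells of their own, in the T cell transfer model of colitis. The WT group, 6 mice, received naive CD4+ CD45RBhigh CD25- T cells, and the KO group, also 6 mice, received CD4 T cells deficient in BCL-6, a transcriptional repressor. Live T cells staining for TCRb and CD4 were sorted out of each colon, marked with 1 hashtag antibody per mouse and read as 1 pooled 5′ library. The labels used here name neither the ages of the mice, nor the part of Bcl6 that was removed, nor the driver of its deletion, and a 5′ count cannot check the deletion, so KO and WT stand for the deposited labels. Mice are numbered by hashtag, 1 to 6 for KO and 7 to 12 for WT. The labels do not say whether mice of a group shared a donor pool, so p-values measure the spread between recipients.

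Each mouse gave 1409 to 1736 cells and 4252124 to 5523025 UMIs (unique molecular identifiers, counted transcript molecules). The sorted identity was borne out by its markers: the 10 T cell markers together took 5239 to 6220 CPM (counts per 1000000 UMIs) in KO mice and 5045 to 5734 in WT mice. Of 33 markers of other cell types, 17 were in the table used here, with none of those for neutrophils, stroma or red cells, and together they took 51.2 to 69.4 CPM in KO mice and 62.9 to 94.8 in WT mice. Cells are grouped by the authors' own annotation into 7 clusters, of which 5 carry a name (cycling, cytotoxic, recirculating, regulatory and Th17) and 2 are called unnamed 1 and unnamed 3 here. The genotypes filled them unequally: unnamed 1 held 3170 KO and 770 WT cells, unnamed 3 held 2291 and 693, cytotoxic 818 and 3037, and Th17 563 and 1658. Foxp3, the regulatory T cell factor, stood at 494 CPM in regulatory cells and at most 1.51 elsewhere. Il17a stood at 1078 in Th17 cells and at most 150 elsewhere. Klf2, a marker of recirculating cells, was at 487 there but at 534 in cytotoxic and 985 in regulatory cells, while S1pr1, the receptor that guides exit from tissue, was at its highest, 122, in recirculating cells.

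Sequences on both sides of the transcription start were searched for short motifs, so a match need not lie in the message itself. RefSeq start windows on GRCm38.p6 were matched for 62 of the 82 genes. CTTTC, the core of a TOP tract, lay within 20 bases of the start on the gene's strand in 30.6% of those genes, against 5.85% of 8944 other genes of the table and 5.49% of all 32851 windows of the RefSeq table. The longer CTTTCC, whose matches are also matches of CTTTC, was there in 17.7% against 2.37% of other genes. Below are windows from 30 bases before to 15 after the annotated start, with CTTTCC and the ETS-type motif CCGGAAG (either strand) in capitals. Rpl35 and Rpl18 are shown because they fell most in KO mice among genes with the motif, and Rpl38 and Rps27 because they carry it and were not called.
Rpl35, chr2:39005117-39005161, minus strand: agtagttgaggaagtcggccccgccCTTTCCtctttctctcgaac
Rpl18, chr7:45718041-45718085, plus strand: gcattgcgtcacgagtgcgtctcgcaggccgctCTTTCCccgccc
Rpl38, chr11:114668550-114668594, plus strand: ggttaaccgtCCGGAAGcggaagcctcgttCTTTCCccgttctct
Rps27, chr3:90213634-90213678, minus strand: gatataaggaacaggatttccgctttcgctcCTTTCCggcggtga
CCGGAAG was found on either strand within the 300-base windows of 41.9% of the ribosomal protein genes and 21.8% of the other genes (8.86% of all windows). GGGCGG, the SP1-type motif, was found in 62.9% and 68.8% (35.7% of all windows). TTCCNNGAA, a form of the site bound by BCL6 and STAT factors, was found in 3.23% and 5.43% (4.81% of all windows). Its 2 carriers were Rpl35 and Rpl4. These matches are letters in a window and no measure of binding.

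Ribosomal protein genes took a smaller part of the RNA of T cells in KO mice. Summed over all cells of a mouse they made up 20.6% to 22.5% of UMIs in KO mice (median 21.1%) and 22.5% to 24.3% in WT mice (median 23.8%). No KO mouse reached the lowest WT mouse, the nearest pair standing at 22.46% and 22.53%. The means were 21.2% ± 0.696 and 23.6% ± 0.696 (SD, n = 6 mice each). As this is a sum over genes picked for study it was given no test. In bulk sums of this kind, fewer UMIs of these genes per cell and a shift between kinds of cells cannot be told apart, so the clusters are given next.

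**Figure D1:**
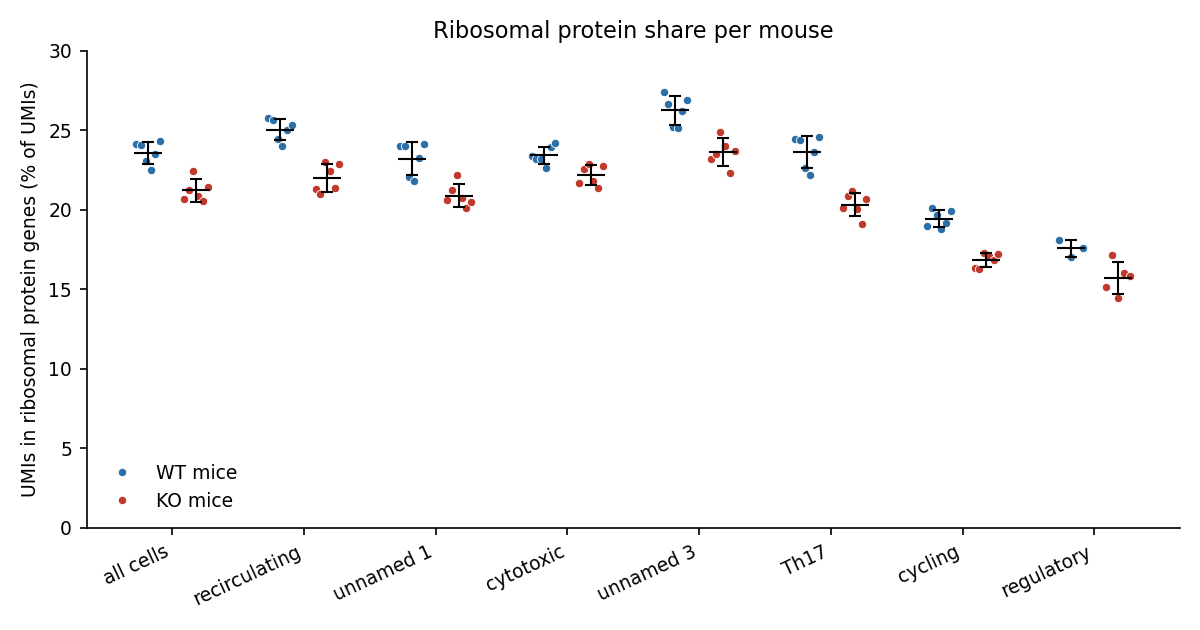
UMIs in ribosomal protein genes as a percent of all UMIs (y axis) over all cells and in each cluster (x axis), 1 point per mouse, blue for WT and red for KO, with the mean and SD in black. Over all cells KO mice sit at 20.6% to 22.5% and WT mice at 22.5% to 24.3%, and in regulatory cells only 5 KO and 3 WT mice had 20 cells.

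The 2 groups did not overlap in recirculating, unnamed 3, Th17 or cycling cells. In recirculating cells the share ran from 21.01% to 23.0% in KO mice (median 21.9%) and from 24.04% to 25.8% in WT mice (median 25.1%). In Th17 cells, which make interleukin 17, it ran from 19.1% to 21.2% (median 20.4%) against 22.2% to 24.6% (median 24.0%). Markers of other cell types also differed there, at 16.8 to 52.5 CPM in KO and 61.1 to 89.1 CPM in WT Th17 cells without overlap, and their part in the result was not tested. In the other 6 clusters those markers overlapped between the groups. In cycling cells it was 16.8% ± 0.445 against 19.4% ± 0.540, and in unnamed 3 cells 23.6% ± 0.867 against 26.3% ± 0.927 (SD, n = 6 each). The groups overlapped in the other 3 clusters. Cytotoxic cells had the narrowest gap, 22.2% ± 0.635 against 23.4% ± 0.562 (n = 6 each). Unnamed 1 cells had 20.9% ± 0.717 against 23.2% ± 1.04, and regulatory cells 15.7% ± 1.03 (n = 5) against 17.6% ± 0.523 (n = 3).

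The order of the clusters is a description, since the clusters were made from these same cells. In WT mice unnamed 3 cells ranked first and recirculating cells second, and each of the 6 mice had the higher share in unnamed 3 cells. Th17, cytotoxic and unnamed 1 cells followed at 23.6%, 23.4% and 23.2%, and these neighbours did not separate: Th17 exceeded cytotoxic cells in 3 of 6 mice and cytotoxic exceeded unnamed 1 cells in 4 of 6. Cycling cells, which are dividing, were lower at 19.4%, in all 6 mice, and regulatory cells lowest at 17.6%. In KO mice unnamed 3 cells were again first and cycling and regulatory cells last. Recirculating and cytotoxic cells there stood at 22.0% and 22.2%, with cytotoxic cells higher in 2 of 6 mice. Among single cells the spread was wide: the central 90% of recirculating cells held 16.2% to 30.4% in KO mice (1993 cells) and 18.1% to 33.9% in WT mice (2299 cells).

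Depth and mitochondrial RNA differed along with the share. The median number of UMIs per cell was 2630 ± 244 in KO and 2945 ± 88.3 in WT mice, and the median mitochondrial percent 0.815 ± 0.00837 and 0.896 ± 0.0294 (SD, n = 6 each). Over all cells only the second did not overlap. In cycling cells median UMIs did not overlap either, at 4614.5 to 5119.5 in KO and 5267 to 6007 in WT mice. In Th17 cells the mitochondrial percent did not, at 0.79 to 0.845 and 0.89 to 0.94. Both overlapped in the other clusters. In cells with 2000 to 4000 UMIs the share was 21.9% against 24.5%, a difference as large as over all cells. This window was not run within cycling cells, and the part of depth there was not tested. With each cluster weighted by its part of all cells, alike in every mouse (fixed cluster weights), the share was 21.4% against 23.9%. The part of mitochondrial content in the result was not tested.

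Gene by gene, the ribosomal protein genes of KO mice were lower or did not pass the test, and 0 were higher. UMI counts were summed per mouse and tested with edgeR's quasi-likelihood test with Benjamini-Hochberg adjustment over all 9861 genes that passed the filter on low counts. A gene was called at an adjusted p under 0.05. The CPM given per mouse for single genes are scaled with TMM factors. Of 81 ribosomal protein genes tested, 64 were lower in KO mice, where 7.21% of all tested genes were called lower and 7.04% higher. The count of 0 higher stands beside 72 genes at an unadjusted p under 0.05 in either direction, and DESeq2 called 1 higher. How many of all tested genes had such a p is not reported here. The median log2 fold change of the 81 genes was -0.18, a fold of 0.884, and that of all genes was -0.000216. In 38 of the 81 the highest KO mouse lay below the lowest WT mouse, and 3.02% of all tested genes showed that. The large subunit had 40 of 49 genes called lower and the small subunit 24 of 32, with medians of -0.17 and -0.21.

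**Figure D2:**
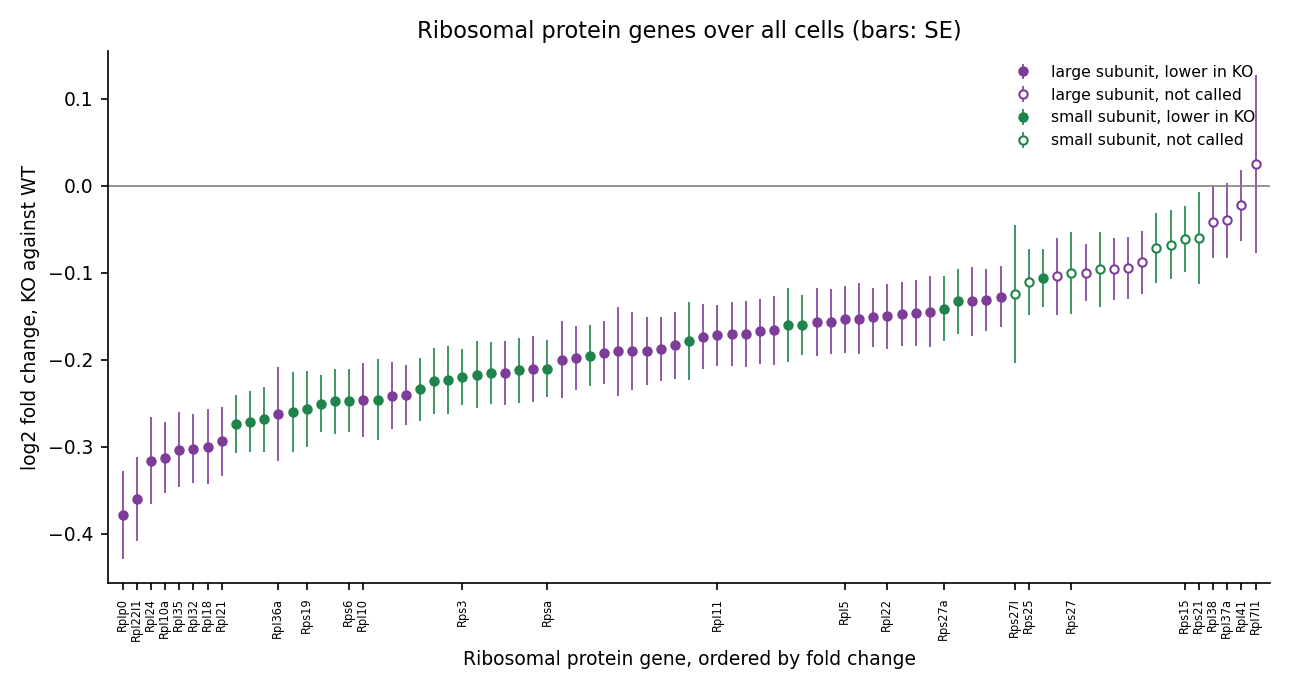
Log2 fold change of KO against WT (y axis, bars are SE) for the 81 ribosomal protein genes tested, ordered from the lowest (x axis, some genes named), purple for the large and green for the small subunit, filled where the gene was called lower. Values run from -0.38 for Rplp0 to 0.02 for Rpl7l1, and the unfilled genes cluster at the right.

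Rplp0, the anchor of the ribosomal stalk that recruits elongation factors, fell most. In KO mice Rplp0 stood at 4250.4 to 5359 CPM (median 4617) and in WT mice at 5874 to 6256 CPM (median 6102). The groups did not overlap, with the 2 highest KO values in mice 6 and 3. The log2 fold change was -0.38 ± 0.05 (SE, n = 6 each, edgeR adjusted p = 0.000125). Rplp0 lies at chr5:115559467-115563727 on the plus strand (GRCm38, GENCODE M21). Its stalk partners Rplp1 and Rplp2 fell by 0.17 ± 0.04 and 0.15 ± 0.04 on the log2 scale (edgeR adjusted p = 0.00702 and 0.0132). The test of Rplp0 against the other ribosomal protein genes is given further on.

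Rpl22l1 came next. It is the paralog of Rpl22, which T cell development is known to need. It stood at 499 to 583 CPM in KO mice (median 519) and 636 to 701 in WT mice (median 687). The groups did not overlap, and the log2 fold change was -0.36 ± 0.05 (edgeR adjusted p = 0.000121). WT mouse 10 was the lowest of its group at 636 CPM, well apart from the other 5.

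The other 6 of the 8 largest falls were also large subunit genes. Rpl24, at the bridge to the small subunit, had 2109.7 to 2616 CPM in KO mice (median 2279.6) and 2728 to 2940.2 in WT mice (median 2909). It fell by 0.32 ± 0.05 (edgeR adjusted p = 0.00053). Rpl10a, part of the mobile L1 stalk beside the exit site, had 2096 to 2411 CPM (median 2191) against 2646 to 2874 (median 2776), without overlap. It fell by 0.31 ± 0.04 (edgeR adjusted p = 9.89e-05). Rpl35, Rpl32, Rpl18 and Rpl21 fell by 0.29 to 0.30, each with no overlap between the groups.

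The genes described next were picked by role and each fell. Rps6, the substrate of the S6 kinases, had 1617 to 1812 CPM in KO mice (median 1681) and 1951 to 2055 in WT mice (median 1999), and fell by 0.25 ± 0.04 (edgeR adjusted p = 0.00026). Rpl5 and Rpl11, which with 5S RNA restrain Mdm2, fell by 0.15 ± 0.04 and 0.17 ± 0.04 (edgeR adjusted p = 0.0131 and 0.00391). Rps19, the gene most often mutated in Diamond-Blackfan anaemia, fell by 0.26 ± 0.04 (edgeR adjusted p = 0.000977). Rps14, which is lost in the 5q- form of myelodysplasia, fell by 0.16 ± 0.03 (edgeR adjusted p = 0.0053). Rpsa, also known as the laminin receptor, fell by 0.21 ± 0.03, Rps3 at the messenger entry channel by 0.22 ± 0.03, Rpl10, one of the last proteins added to the large subunit, by 0.25 ± 0.04, and Rpl13a by 0.17 ± 0.04 (edgeR adjusted p = 0.000462, 0.000276, 0.00109 and 0.0067).

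The genes that did not pass were 9 of the large and 8 of the small subunit. Among them were Rpl7l1, Rpl9, Rpl19, Rpl35a, Rpl36, Rpl37, Rpl37a, Rpl38, Rpl41, Rps15, Rps16, Rps21, Rps25, Rps27, Rps27l and Rps29. Rpl41, the shortest of the ribosomal proteins, was at 480.3 to 530.03 CPM in KO mice (median 518) and 492.55 to 534 in WT mice (median 519.9), with the groups overlapping over most of their range. Its log2 fold change was -0.02 ± 0.04 (edgeR adjusted p = 0.774). Rpl38, needed in the embryo for translation of certain Hox messages, was at -0.04 ± 0.04 (edgeR adjusted p = 0.565). Rps25, used by viral internal entry sites, was at -0.11 ± 0.04 (edgeR adjusted p = 0.0622). It was called lower by DESeq2 (adjusted p = 0.0225) and by limma with fixed cluster weights (adjusted p = 0.0478). A miss does not show that a gene was equal in both groups.

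Scaling each mouse to its own sum of ribosomal protein UMIs asks which genes departed from the rest. On that scale the median of all genes shifted by 0.19, so 35.1% of all tested genes were called higher and 2.95% lower, and only the ribosomal protein genes are read on it. The adjustment ran over all tested genes, so the many shifted genes eased the threshold. The adjusted p-values on this scale therefore do not set the error rate among the ribosomal protein genes alone. Of the 81, 12 were higher and 10 lower. Relative to the sum, Rplp0 fell by 0.19 ± 0.04, Rpl22l1 by 0.17 ± 0.04 and Rpl24 by 0.12 ± 0.04 (edgeR adjusted p = 0.00387, 0.0048 and 0.0304). Rpl10a fell by 0.12 ± 0.03, Rpl35 by 0.11 ± 0.04 and Rpl32 by 0.11 ± 0.03 (edgeR adjusted p = 0.00557, 0.0258 and 0.00518). These values are part of the falls given above and are not added to them. Rpl41 rose by 0.17 ± 0.05, Rpl37a by 0.15 ± 0.03, Rpl38 by 0.15 ± 0.03, and Rps21, Rps15 and Rps16 by 0.13 ± 0.04, 0.13 ± 0.04 and 0.13 ± 0.03 relative to the sum (edgeR adjusted p = 0.00977, 0.0026, 0.00336, 0.0213, 0.0103 and 0.0024). These genes thus kept more of the ribosomal protein UMIs in KO mice, while their own CPM did not pass. Rpl24 and Rpl35 lost their calls when single mice were left out, with adjusted p up to 0.0682 and 0.0591, and Rps21 with one up to 0.0506.

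Short genes were frequent among those that did not pass, a pattern picked out after the values were seen. Of 10 genes with a coding sequence of at most 300 bases, 2 were called lower over all cells, Rps28 and Rpl39 (the latter lost in 5 alternatives), at a median of -0.09 on the log2 scale. Of 23 genes with at least 600 coding bases 22 were called lower, with a median of -0.21, and of the 48 between them 40, with a median of -0.18. The rank correlation of the log2 fold change with coding length over the 81 genes was -0.32, and Pearson's r against log2 length was -0.36. The genes share libraries and are not independent. The rank correlation was -0.29 with the level of the gene, so level went along with the change as length did. Within clusters the rank correlation with length was -0.33 in recirculating, -0.37 in Th17 and -0.35 in cycling cells, and -0.06 in cytotoxic cells. That with level was -0.32, -0.27, -0.32 and -0.11 in these clusters. Unnamed 1, unnamed 3 and regulatory cells had -0.24, -0.17 and -0.14 with length, and -0.43, -0.34 and -0.27 with level.

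**Figure D3:**
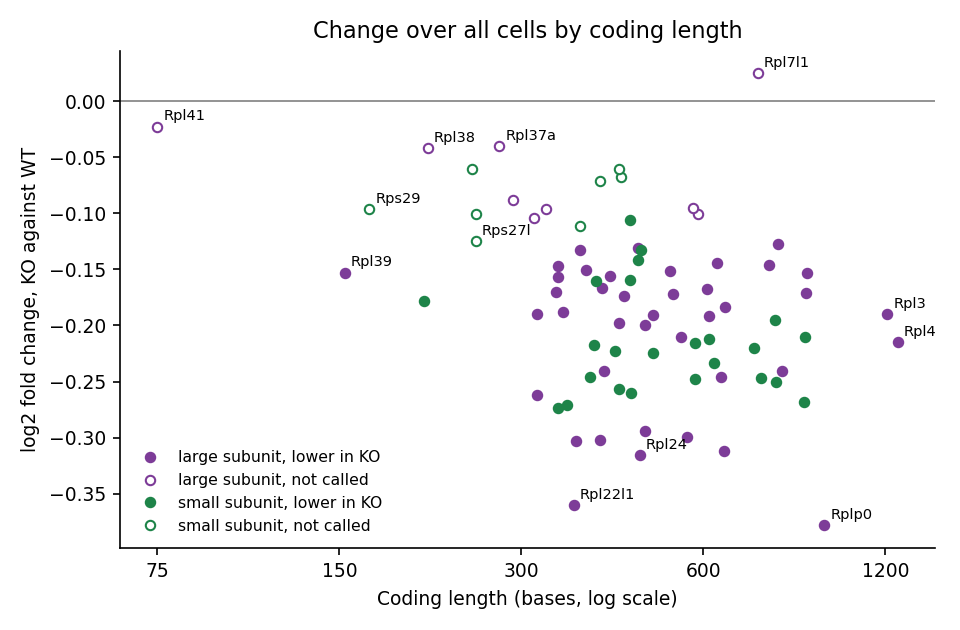
Log2 fold change of KO against WT over all cells (y axis) against coding length in bases (x axis, log scale) for the 81 ribosomal protein genes tested, purple for the large and green for the small subunit, filled where called lower. The 10 genes of at most 300 bases have a median of -0.09 and the 23 of at least 600 bases one of -0.21, while Rpl7l1 is a long gene that was not called.

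Genes with and without the start motif had like medians. Genes that lack these exact letters can still begin with a pyrimidine tract. The comparison thus does not set TOP messages against other messages. Of 18 tested genes with CTTTC near the start 15 were called lower, at a median log2 fold change of -0.18, and of 43 without it 32 were, at the same median. Of 25 with CCGGAAG, 18 were called lower with a median of -0.17, against 29 of 36 without it with a median of -0.19. Rpl35 and Rpl38, printed above, both carry CTTTCC and lie far apart in the order of falls. They were chosen by their falls, so this distance was set by the choice and adds nothing to the medians.

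Within clusters, each fitted on its own, the genes were lower in 6 of 7. In recirculating cells 70 of 81 were called lower, where 3.3% of all 7596 tested genes were. Cycling cells had 64 of 81 (2.92% of all), unnamed 3 cells 52 of 80 (5.33%), unnamed 1 cells 45 of 81 (2.9%), Th17 cells 43 of 81 (2.57%) and cytotoxic cells 16 of 81 (1.58%). None was called higher by this edgeR test in any cluster. Of all genes, 2.17% were called higher in recirculating, 2.44% in cycling, 3.09% in unnamed 3, 1.75% in unnamed 1, 2.52% in Th17 and 1.32% in cytotoxic cells. Ribosomal protein genes with an unadjusted p under 0.05 numbered 78, 75, 70, 66, 70 and 49 in that order. In Th17 and cycling cells all 81 fold changes were below 0, and in unnamed 3 cells all 80. In regulatory cells, with 5 KO and 3 WT mice, 0 of 80 were called by edgeR (0.342% of all genes lower and 0.171% higher), 17 had an unadjusted p under 0.05 and the median log2 fold change was -0.18, a fold of 0.885. The shares of all genes with an unadjusted p under 0.05 in each cluster are not reported here. The counts at that p, the 17 in regulatory cells included, are therefore not set against other genes. DESeq2 was not run within clusters. Regulatory cells also stood apart in markers of other cell types, with 288 to 695 CPM in KO and 520.4 to 575 in WT mice, of which Ighm gave most. What that has to do with their result was not tested.

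**Figure D4:**
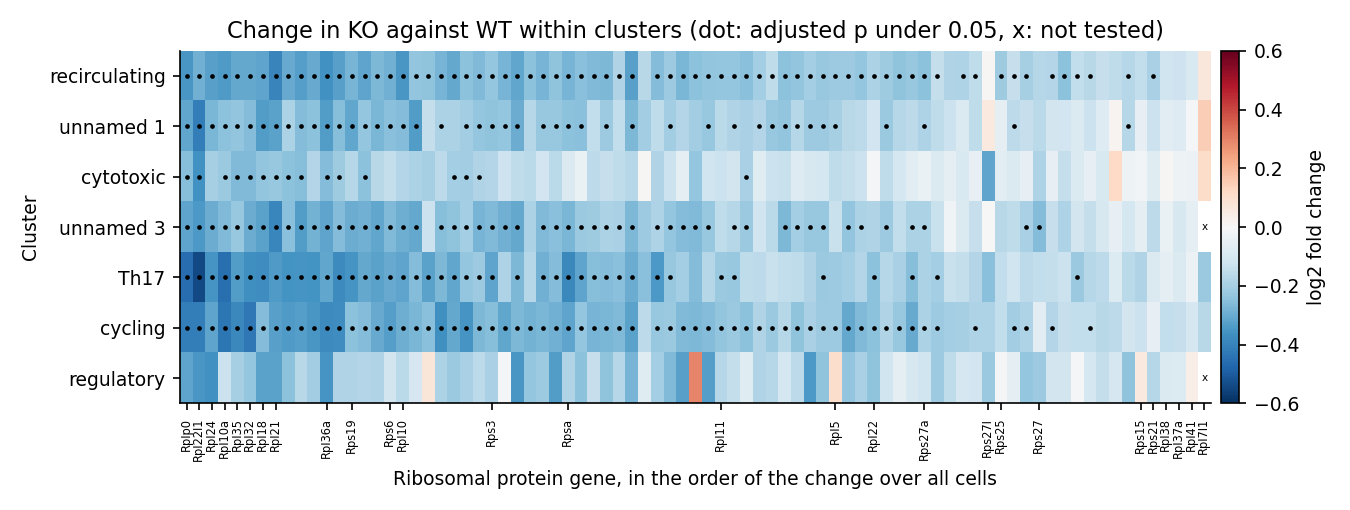
Log2 fold change of KO against WT (colour, blue lower in KO) for the 81 ribosomal protein genes (x axis, in the order of the change over all cells, some named) in the 7 clusters (y axis), with a dot where the adjusted p was under 0.05 and a cross where the gene was not tested. Recirculating cells have 70 dots, cytotoxic cells 16 and regulatory cells 0.

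In recirculating cells Rpl21 fell most. It stood at 3015 to 3684 CPM in KO mice (median 3348) and 4200.3 to 4608 in WT mice (median 4412), without overlap, a log2 fold change of -0.39 ± 0.04 (edgeR adjusted p = 1.8e-06). Rpl36a and Rpl10 followed at -0.36 ± 0.06 and -0.35 ± 0.05 (edgeR adjusted p = 0.00026 and 3.88e-05). In unnamed 3 cells Rpl21 again fell most, by 0.39 ± 0.05, then Rpl22l1 and Rps20 by 0.34 ± 0.07 and 0.33 ± 0.05 (edgeR adjusted p = 5.35e-06, 0.00155 and 3.29e-05).

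The largest called fall of any cluster was in Th17 cells. Rpl22l1 stood there at 330.4 to 519.6 CPM in KO mice (median 393) and 581 to 683 in WT mice (median 618), a log2 fold change of -0.54 ± 0.09 (edgeR adjusted p = 0.000736). The lowest KO value came from mouse 2, which had only 44 Th17 cells. The groups did not overlap. Rplp0 and Rpl10a fell there by 0.46 ± 0.05 and 0.45 ± 0.06 (edgeR adjusted p = 1.51e-05 and 8.9e-05). In cycling cells Rpl10a, Rpl32 and Rpl22l1 fell by 0.43 ± 0.05, 0.43 ± 0.05 and 0.42 ± 0.08 (edgeR adjusted p = 4.35e-06, 1.2e-05 and 0.00102). In unnamed 1 cells Rpl22l1, Rpl36a and Rpl18 fell by 0.41 ± 0.07, 0.34 ± 0.08 and 0.33 ± 0.05 (edgeR adjusted p = 0.000798, 0.0103 and 0.000161). Cytotoxic cells had the mildest changes. Rpl22l1, Rpl32 and Rpl35 fell there by 0.36 ± 0.07, 0.27 ± 0.05 and 0.26 ± 0.07 (edgeR adjusted p = 0.00196, 0.0027 and 0.0295), the last lost in 8 alternatives with adjusted p up to 0.11. Without KO mouse 5 only 9 genes were called in cytotoxic cells.

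The 14 genes called lower in 6 clusters were Rpl10a, Rpl18, Rpl21, Rpl22l1, Rpl32, Rpl35, Rpl36a, Rplp0, Rps10, Rps18, Rps20, Rps23, Rps26 and Rps3a1. The 10 called in none included Rpl31, Rpl36al, Rpl37, Rpl37a, Rpl38, Rpl41, Rpl7l1, Rps15 and Rps27l. These counts were made for the ribosomal protein genes only. The share of all genes called lower in as many clusters is thus not known, only that in each single cluster, given above. Whether the clusters differed in their response was tested directly, on the difference between 2 clusters within each mouse. Neither cytotoxic, Th17 nor unnamed 1 cells differed from recirculating cells in any gene that limma called (0% of 8120, 7789 and 7970 genes), with 603, 613 and 560 genes at an unadjusted p under 0.05. Among ribosomal protein genes that number was 2, 0 and 0. Of the 2, Rpl14 stood at -0.20 ± 0.09 (limma adjusted p = 0.659), as the effect in recirculating minus that in cytotoxic cells. Rpl22l1 came closest in the pair with Th17 cells, at 0.29 ± 0.14 (limma adjusted p = 0.652). Gene by gene, the different counts per cluster are therefore not shown to be different responses. The test took each gene singly and did not cover the summed share. The mean share in KO minus that in WT mice was -3.04 percentage points in recirculating and -1.25 in cytotoxic cells. It was -3.31 in Th17 and -2.32 in unnamed 1 cells. Whether these gaps differ between clusters was not tested.

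The large and small subunits moved together. The ratio of large to small subunit UMIs over all cells was 1.23 ± 0.0124 in KO and 1.23 ± 0.00498 in WT mice (SD, n = 6 each), with ranges of 1.22 to 1.26 and 1.23 to 1.24 that overlapped. In 6 of the 7 clusters the groups also overlapped. In unnamed 1 cells they did not: the ratio was 1.23 to 1.25 in KO mice (mean 1.235 ± 0.00593) and 1.204 to 1.23 in WT mice (mean 1.214 ± 0.00728). The difference there was 0.0205 in the ratio, under 2% of it. Clusters with overlap also held differences of that size. Unnamed 3 cells had means of 1.218 ± 0.0083 in KO and 1.193 ± 0.0156 in WT mice. Regulatory cells went the other way, at 1.270 ± 0.0269 (n = 5) and 1.293 ± 0.0166 (n = 3).

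Paralogs are copies of a gene that can stand in for one another in the ribosome, and 5 pairs were present. The stretch of Rpl22 and Rpl22l1 below, the first 60 aligned coding bases of their longest gap-free block, shows how far apart the copies are, with differing bases in capitals (GENCODE M21 transcripts, coding bases 175 to 234 and 157 to 216). The pair shared 71.2% of aligned coding bases. Rpl39 and Rpl39l, shown over their first 60 coding bases, differ at only 4 of them and share 85.0% of coding bases.
Rpl22: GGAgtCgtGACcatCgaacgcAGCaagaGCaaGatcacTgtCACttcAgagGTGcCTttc
Rpl22l1: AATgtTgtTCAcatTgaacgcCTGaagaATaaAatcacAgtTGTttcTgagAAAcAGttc
Rpl39: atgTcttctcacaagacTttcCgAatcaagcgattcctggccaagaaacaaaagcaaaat
Rpl39l: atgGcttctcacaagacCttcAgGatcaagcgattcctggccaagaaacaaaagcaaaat
Rpl22l1 lost ground to Rpl22 in KO mice. It gave 26.8% to 29.2% of the UMIs of the pair there (median 27.5%) and 30.3% to 31.8% in WT mice (median 30.8%), without overlap. Rpl22 itself stood at 1330 to 1453 CPM in KO mice (median 1370.3) and 1460.1 to 1612 in WT mice (median 1517). It fell by 0.15 ± 0.04 on the log2 scale (edgeR adjusted p = 0.0119), against 0.36 ± 0.05 for Rpl22l1. In cytotoxic cells the Rpl22l1 percent was 27.5 ± 2.81 against 33.2 ± 0.898 and in unnamed 1 cells 27.1 ± 0.688 against 31.5 ± 1.99 (SD, n = 6 each), without overlap. KO mice 1 and 2 gave only 69 and 51 cytotoxic cells. In the other 5 clusters the groups overlapped.

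**Figure D5:**
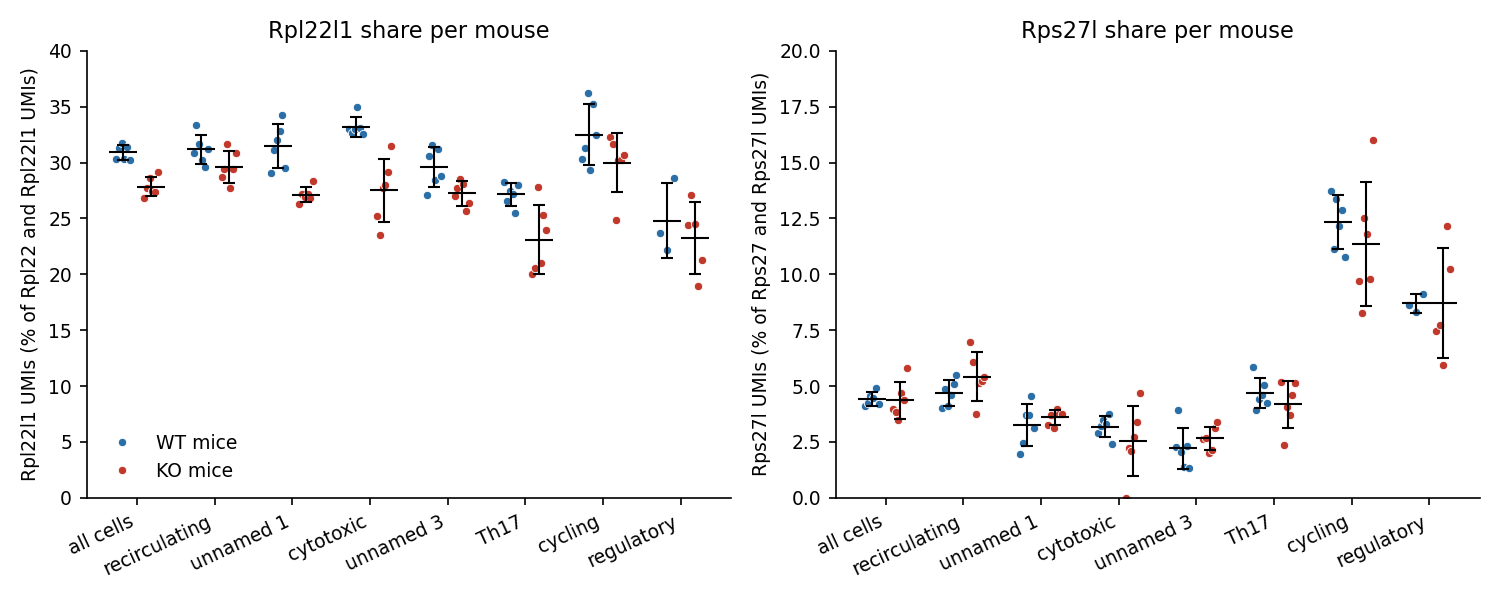
Percent of the UMIs of a pair that came from Rpl22l1 (left) and Rps27l (right) over all cells and in each cluster (x axis), 1 point per mouse, blue for WT and red for KO, with the mean and SD in black. Over all cells Rpl22l1 gives 26.8% to 29.2% in KO and 30.3% to 31.8% in WT mice, and Rps27l is at its highest in cycling cells.

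Rps27l, a paralog of Rps27 known as a target of p53, differed most between clusters. It gave 4.37% ± 0.825 of the pair in KO and 4.42% ± 0.297 in WT mice over all cells. In cycling cells it gave 11.3% ± 2.76 and 12.3% ± 1.21, in regulatory cells 8.70% ± 2.46 (n = 5) and 8.69% ± 0.408 (n = 3), and in unnamed 3 cells 2.65% ± 0.531 and 2.21% ± 0.935. Its log2 fold change over all cells was -0.12 ± 0.08 and that of Rps27 -0.10 ± 0.05 (edgeR adjusted p = 0.338 and 0.177). Rps27 had called falls in 2 alternatives: in cells with 2000 to 4000 UMIs (edgeR adjusted p = 0.00411) and with fixed cluster weights (limma adjusted p = 0.00512). Rps27l had a called fall in 1, without KO mouse 6 (edgeR adjusted p = 0.0387).

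Rpl36al gave about as many UMIs as Rpl36a, 51.8% ± 2.30 of the pair in KO and 50.6% ± 1.39 in WT mice, with the groups overlapping. Rpl36a fell by 0.26 ± 0.05 and Rpl36al by 0.19 ± 0.04 over all cells (edgeR adjusted p = 0.00398 and 0.00885). Rpl7l1, known from ribosome assembly, gave 1.48% ± 0.194 and 1.23% ± 0.167 of its pair. Rpl7 fell by 0.24 ± 0.03 (edgeR adjusted p = 0.000223) and Rpl7l1 stood at 0.02 ± 0.10 (edgeR adjusted p = 0.913).

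Rpl39l, best known from male germ cells, was nearly absent from WT mice. It gave 11, 7, 7, 13, 65 and 6 UMIs in KO mice 1 to 6 and 2, 0, 4, 0, 2 and 1 in WT mice 7 to 12. Every KO mouse stood above every WT mouse, at 1.07 to 13.6 CPM against 0 to 0.806 CPM. Mouse 5 held 65 of the 109 KO UMIs, 31 of them in unnamed 1 cells, and the other 5 KO mice held 44 together. Rpl39 itself fell by 0.15 ± 0.04 (edgeR adjusted p = 0.0187), a call lost in 5 alternatives with adjusted p up to 0.0734, among them the fits without KO mouse 1, KO mouse 5 or WT mouse 7. The filter on low counts removed Rpl39l from the main edgeR fit. With no filter edgeR called it higher at a log2 fold change of 3.54 ± 0.80 (adjusted p = 0.00734), DESeq2 at 3.66 ± 0.77 (adjusted p = 6.97e-05), and edgeR with no filter and without mouse 5 at 2.52 ± 0.52 (adjusted p = 0.00616). With so few UMIs the fold depends on the model. The labels used here give no strain for the donors, so the deletion of Bcl6 and any other genetic difference between the donor cells cannot be told apart as sources of this difference. Rpl39l lies at chr16:10170226-10174911, on the chromosome that also carries Bcl6 at chr16:23965052-23988852 (GRCm38, GENCODE M21).

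Across clusters of WT mice most genes were lowest in regulatory or cycling cells and highest in unnamed 3 or recirculating cells. The range of a gene's mean over the 7 clusters had a median of 0.67 on the log2 CPM scale. Regulatory cells were lowest for 53 of the 82 genes and cycling cells for 26, and unnamed 3 cells were highest for 49 and recirculating cells for 19. The widest ranges were those of Rps27l (1.48), Rps27 (1.38), Rpl28 (1.27), Rpl39l (1.16, from few UMIs) and Rpl35a (1.09). Rps27 and Rps27l ran opposite ways between cycling and unnamed 3 cells: in cycling cells Rps27 was at its lowest, 981 ± 43.1 CPM against 2551 ± 74.6 in unnamed 3 cells, and Rps27l was at 138 ± 12.3 CPM against 57.8 ± 24.8 there (SD, n = 6). Rpl28 was highest in cycling cells, at 2749 CPM, and lowest in regulatory cells, at 1141 CPM. Among the narrowest were those of Rpl41 (0.24), Rpl7l1 (0.26), Rpl23a (0.44) and Rpl11 (0.45).

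Over 80 profiles of a mouse and cluster, each gene's log2 CPM was set against the summed CPM of the ribosomal protein genes as a description. The profiles share mice, a library and cluster makeup. Each of the 82 genes is also part of the sum it was set against, so part of its r is built in. The median r of the 82 genes was 0.87, 75 were above 0.5 and Rps27l was lowest at -0.34, while 5521 other genes had a median of 0.00415. Of those others Eef1b2, a subunit of the elongation factor that reloads eEF1A, was nearest at 0.93. Among those that followed were Rack1, a protein of the small subunit head, at 0.89, Eef1a1 at 0.88, Eef2 at 0.87, Nsa2 at 0.86, Gm10076 at 0.84, mt-Co1 at 0.81, Cox7a2l at 0.81, Fau at 0.80, Eif3e and Eif3f at 0.79, Naca at 0.77, Stk17b at 0.76 and Btg2 at 0.75.

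Of those neighbours Eef1b2, Rack1, Nsa2, Gm10076, mt-Co1, Eif3e, Eif3f and Naca were lower in KO mice. Rack1, Eef1b2 and Eif3f fell by 0.32 ± 0.04, 0.28 ± 0.04 and 0.29 ± 0.04 on the log2 scale (edgeR adjusted p = 0.000106, 0.000166 and 0.000349). Rack1 had 1862 to 2162 CPM in KO mice (median 1963) and 2387 to 2555 in WT mice (median 2492), with no overlap. Fau, which encodes a ribosomal protein fused to a ubiquitin-like protein and is not among the 82, stood at -0.10 ± 0.03 (edgeR adjusted p = 0.0517). Rps27a, which encodes a fusion to ubiquitin and is among the 82, fell by 0.14 ± 0.04 (edgeR adjusted p = 0.0173), a call lost in 5 alternatives with adjusted p up to 0.0978, the highest of them without KO mice 1 and 2, and including the fits without KO mouse 1, KO mouse 5 or WT mouse 7.

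Other lists of protein synthesis genes are given by their counts. Of 23 elongation factors and other TOP messages 9 were lower and 0 higher over all cells, and their median log2 fold change was -0.12. The 9 were Rack1, Eef1b2, Eif3f, Naca, Eef1g, Btf3, Eif3h, Eif3k and Eif3e. Of 24 initiation genes 3 were lower, Eif1a, Eif1ax and Eif3i at -0.38 ± 0.08, -0.28 ± 0.07 and -0.15 ± 0.05, and 1 was higher, Eif4g2 at 0.24 ± 0.08 (edgeR adjusted p = 0.00559, 0.0115, 0.0331 and 0.0481). Of 37 genes of ribosome assembly 1 was lower, Nob1, which cuts the small subunit RNA to its final length, at -0.29 ± 0.08 (edgeR adjusted p = 0.0258), and 0 were higher by that test. Of 78 mitochondrial ribosomal protein genes 3 were lower, Mrps16, Mrps36 and Mrpl17, and 0 higher, with a median of -0.05. Of 18 growth regulators 1 was higher, Max, the partner of Myc, at 0.23 ± 0.05 (edgeR adjusted p = 0.00705), and 0 lower. The shares of all genes called lower and higher, 7.21% and 7.04%, apply to each list.

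Some of these genes have near-identical copies in the genome, so that counting could split their UMIs. Rps27rt gave 5.36% of the UMIs of Rps27 and itself together and Rpl10-ps3 2.92% of those with Rpl10, and both, like Rpl27-ps3 and Rps12-ps3, matched their gene over the whole aligned length. Rpl10-ps3 fell by 0.32 ± 0.06 and Rpl9-ps6 by 0.24 ± 0.08 (edgeR adjusted p = 0.00309 and 0.0435), while Rps27rt was at -0.14 ± 0.05 (edgeR adjusted p = 0.066). The values of Rps27, Rpl10, Rpl27, Rpl9 and Rps12 carry that uncertainty.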

How the data were processed

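Per the labels' protocols, sorted colonic T cells of 12 mice were hashtagged and read with 10x 5′ chemistry. The tools Cell Ranger 3.1.0 and Seurat 3.1.5, and the builds GRCm38 and mm10, are named per the submitters' processing notes. The deposited table holds raw UMI counts of 18860 cells over 11971 genes, beside an annotation by the authors with mouse, genotype, cluster and a percent of mitochondrial UMIs per cell. Cell filters, doublet treatment and aligner settings are not given in the sources used here, and no doublet caller was run.

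For each mouse, counts were added up over all its cells and over each cluster with at least 20 of its cells. The sums went into edgeR 4.0.16 under R 4.3.3 (quasi-likelihood test, TMM, filterByExpr, no covariates, two-sided), over all genes, with Benjamini-Hochberg adjustment. SE is the log2 fold change divided by the square root of F. Clusters were compared with limma 3.58.1 (trend, prior count 0.5) on log2 CPM differences within mice. Gene CPM per mouse carry TMM factors, while CPM of markers and cluster profiles are plain counts over total. Shares and ratios have no test. Scripts were tested on simulated data. Over all cells counting error is small for most of these genes, and the number of mice limits precision. Within clusters counts can be low: KO mouse 2 had 44 Th17 cells with 127551 UMIs and 51 cytotoxic cells with 105656 UMIs.

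The genes and lists were chosen with earlier results of these data known. Named were paralog pairs, a panel by role, the 8 largest called changes over all cells in each direction, 3 per cluster, 6 departures from the summed ribosomal protein UMIs, the 5 widest and 5 narrowest cluster ranges, 15 nearest genes and, of other lists, up to 6 genes of smallest p (all 9 called TOP messages are named). Some genes that this rule names are not reported here. Coding lengths and coordinates come from GENCODE M21, start windows from RefSeq. Alternatives were DESeq2 1.42.0, other scalings and filters, cell subsets, fixed cluster weights (genes tested with limma) and each mouse left out. Added after seeing the data were fits without KO mice 1 and 2, and without mouse 5 and any filter.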

Additional observations from a re-analysis of the deposited data

Results flagged for a closer look

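In 7 of 102 groups of mice examined, 1 mouse lay apart from the rest by Dixon's criterion, which chance meets in about 1 group in 20. Rpl22l1 and Rpl24 were lowest among WT mice in mouse 10, at 636 and 2728 CPM, and both still lay above every KO mouse. Rpl39l was highest in KO mouse 5, at 13.6 CPM, and so was its percent of the Rpl39 and Rpl39l UMIs, at 0.818%. Rps27a was highest among KO mice in mouse 3, at 3629.8 CPM. Rps27l was highest among WT mice in mouse 11, at 95.1 CPM. The large to small subunit ratio was highest among KO mice in mouse 6, at 1.26.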

How the results depend on the processing

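Over all cells the count of ribosomal protein genes called lower stayed between 49 and 70 of 81 under every alternative run, against 64, and leaving out 1 mouse at a time gave 54 to 65. It was 49 without KO mice 1 and 2, the recipients with the fewest recirculating and cytotoxic cells. One gene, Rpl39l, was called higher with no filter on low counts, with DESeq2, and with no filter and without KO mouse 5 (1 gene each over all cells, and 1 each with no filter in recirculating and in cytotoxic cells), against 0. Within clusters, no filter on low counts gave 17 genes lower in unnamed 1 cells (45 with it) and 36 in cytotoxic cells (16 with it), and cells with 2000 to 4000 UMIs gave 10 in cytotoxic cells. Leaving out 1 mouse gave 9 to 21 there, the lowest without KO mouse 5, and 31 to 50 in unnamed 1 cells, 33 to 47 in Th17, 45 to 57 in unnamed 3, 57 to 65 in cycling, 65 to 73 in recirculating and 0 in regulatory cells. The cause was not tested. Shares, ratios and paralog percents moved by less than 1 SD between mice. Named genes lost a call in 33 and gained one in 5 of 1089 repeats, and 0 changed direction past the threshold. Calls over all cells were lost for Rpl13a, Rpl22 and Rpl36al without KO mice 1 and 2 (edgeR adjusted p = 0.0577, 0.0592 and 0.0588), and for Rpl5 and Rplp2 with no filter and without KO mouse 5 (0.052 and 0.0557). Too few mice were left for the UMI window in cycling and regulatory cells and for 50 cells in regulatory cells, so these were not run. No paired analysis was possible because the hashtag numbers of KO and WT mice do not overlap. Rpl39l rests on few UMIs, and regulatory cells on 5 KO and 3 WT mice.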
